A study of Homo sapiens with 2 samples.

Results

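The regions described here are the TP73 ChIP-seq peaks at 8 genes for transcription factors of the T lineage: GATA3, BCL11B, TCF7, LEF1, ETS1, TOX, ZEB1 and RORA. A peak was a member when its summit lay in the gene's hg19 span or within 20 kb of it. This rule used position only and found 45 of the 18908 peaks in the list, with at least 1 at each of the 8 genes. The study immunoprecipitated chromatin of TL-Om1, an established human line of adult T-cell leukaemia, with an antibody against TP73, and sequenced whole cell extract as input. Cells of both libraries grew in RPMI-1640 with 10% serum and antibiotics and were fixed with formaldehyde for 10 min, and no other treatment or genotype is labelled. Each group has 1 library of 1 line, so no value has a replicate error and the differences are descriptions without a p-value of their own.

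TP73 is a transcription factor of the p53 family, whose members bind DNA as tetramers at a motif made of repeated copies of a short element with a C, A or T bases and a G at its centre. The 8 genes encode factors that turn progenitor cells into T cells and then shape which kind of T cell they become. GATA3 and BCL11B direct early commitment, TCF7 and LEF1 encode the HMG-box partners of beta-catenin in the thymus, and TOX is an HMG-box factor of CD4 T-cell development. ETS1 is the founding factor of the ETS family, ZEB1 is a zinc finger repressor, and RORA encodes a nuclear receptor of helper T cells and innate lymphoid cells. The peak list holds no expression values, so the level of these genes in TL-Om1 cells was not analysed here.

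Promoter sequence is shown for GATA3 and ZEB1, the loci where a summit lay within 1 kb of the gene start as the rule rounds it. The letters come from the RefSeq promoter table, whose build is GRCh38.p14, and their coordinates cannot be set against the hg19 peaks. For GATA3, 2 RefSeq starts matched the hg19 span in length to within 1 kb, at 20.5 and 21.6 kb from the gene's end against 21 kb in the rule. For ZEB1 the start at 211.39 kb from the gene's end was the match, against 212 kb in the rule. Another ZEB1 start, at 210.99 kb, fell just outside that limit and is not printed. The ZEB1 summit near the start lay 211.02 kb from the rounded end, so which of these starts it is nearer to is not settled. Each line gives the 250 bases before the start on the plus strand. Capitals mark CATG (a common core of the p53-family element), GATA on either strand, and GGAA (the core bound by ETS factors) on either strand.
GATA3, start nearer the gene's end, chr10:8054438-8054687 (GRCh38.p14): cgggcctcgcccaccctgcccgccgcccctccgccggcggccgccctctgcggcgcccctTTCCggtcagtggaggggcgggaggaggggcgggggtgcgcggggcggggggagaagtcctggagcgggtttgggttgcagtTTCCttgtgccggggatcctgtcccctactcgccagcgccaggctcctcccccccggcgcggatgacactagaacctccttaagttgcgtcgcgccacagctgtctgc
GATA3, start farther from the gene's end, chr10:8053391-8053640 (GRCh38.p14): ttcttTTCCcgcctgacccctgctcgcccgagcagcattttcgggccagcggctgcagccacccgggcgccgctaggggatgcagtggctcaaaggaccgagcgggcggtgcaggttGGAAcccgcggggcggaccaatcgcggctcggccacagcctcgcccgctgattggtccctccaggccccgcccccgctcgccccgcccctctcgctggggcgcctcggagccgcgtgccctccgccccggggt
ZEB1, chr10:31318167-31318416 (GRCh38.p14): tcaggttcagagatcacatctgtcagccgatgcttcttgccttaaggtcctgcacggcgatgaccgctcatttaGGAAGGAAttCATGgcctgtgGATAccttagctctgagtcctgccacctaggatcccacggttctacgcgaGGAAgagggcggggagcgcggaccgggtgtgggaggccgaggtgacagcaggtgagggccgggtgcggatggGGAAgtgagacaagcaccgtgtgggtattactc

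Both GATA3 stretches were rich in G and C, with shares of 73.6% and 74.8%, and the ZEB1 stretch had 59.2%. The GATA3 stretches held 2 GGAA words each and 0 CATG or GATA words, whereas the ZEB1 stretch held 4 GGAA words, 1 CATG and 1 GATA. Over the full 300 bases of the table, promoters of 3 of the 8 genes could be matched to the rule's span, 2 for GATA3 and 1 each for BCL11B and ZEB1. A p53-family motif (the full motif of 2 adjacent elements, at most 1 mismatch, both strands) was in 0 of these 4 promoters and in 0.094% of all 35116 promoters. CATG followed 6 bases later by another CATG, a word that reads the same on both strands, was in 0 of 4 and in 0.373% of all. GATA was in 3 of 4 against 49.7% of all promoters, GGAA in 3 of 4 against 95.5%, CATG in 1 of 4 against 54.9%, and TGTGGT, the RUNX word, in 0 of 4 against 13.1%. Words were searched on both strands. A match is a description of letters, not of binding, and sequence under the peaks themselves was not used here.

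TP73 peaks were denser at the 8 loci together than over the rest of the 7 chromosomes that carry them. The windows covered 1.999 Mb and held 22.5 peaks per Mb (exact 95% Poisson interval 16.4 to 30.1), against 5.99 per Mb over the other 5706 peaks of those chromosomes. The ratio was 3.76 (exact 95% interval 2.74 to 5.04). Intervals cover counting error only and treat neighbouring peaks as independent. The rest of a chromosome includes long stretches without genes, so the ratio does not compare these genes with other genes. With RORA left out, 27 peaks at 22.2 per Mb (14.6 to 32.3) remained against 5.66 per Mb, a ratio of 3.92 (2.58 to 5.72).

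The loci differed widely in density. GATA3 was first with 98.4 peaks per Mb (36.1 to 214.1), from 6 peaks in a window of 61 kb, which was 16.8 times the rest of chromosome 10 (6.13 to 36.7). BCL11B was second with 48.95 per Mb (19.7 to 100.9), from 7 peaks in 143 kb, 6.84 times the rest of chromosome 14 (2.74 to 14.2). TCF7 followed with 27.0 per Mb, but from 2 peaks, and its interval of 3.27 to 97.6 includes the densities of all the other loci except GATA3; the ratio to the rest of chromosome 5 was 4.94 (0.598 to 17.9). RORA had the most peaks, 18 in 782 kb, at 23.0 per Mb (13.6 to 36.4), 2.40 times the rest of chromosome 15 (1.42 to 3.82). ZEB1 with 15.9, TOX with 14.1 and LEF1 with 12.3 peaks per Mb had ratios of 2.71, 2.63 and 2.86 whose intervals all included 1. ETS1 came last at 5.88 per Mb, 0.845 times the rest of chromosome 11 (0.021 to 4.72). Only the intervals of the ratios at GATA3, BCL11B and RORA lay above 1. Members were chosen with earlier results of these data known, and none of the density intervals allows for that.

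**Figure D1:**
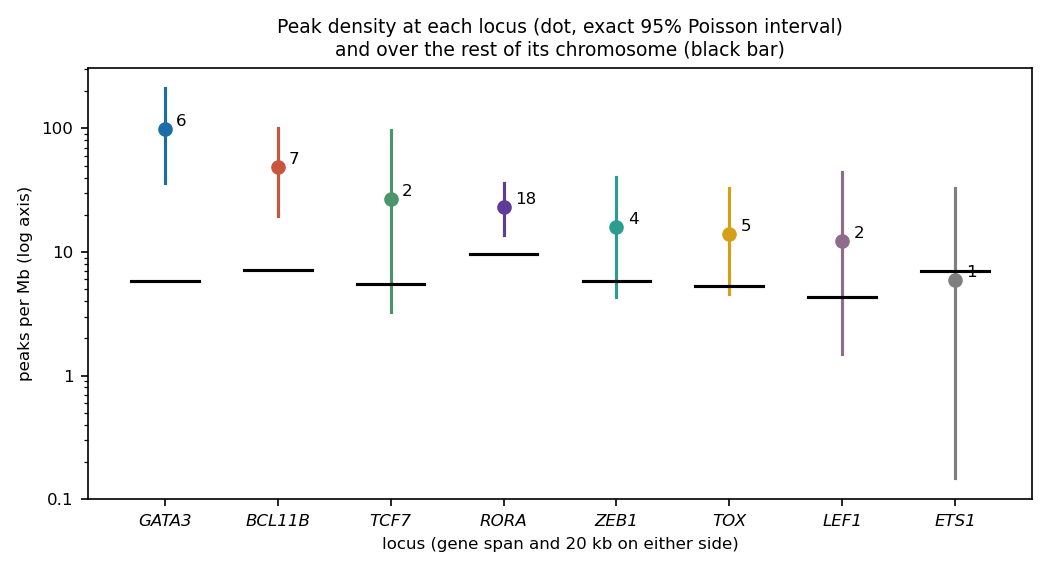
Peaks per Mb (log axis) at each locus, counted over the gene span and 20 kb on either side, with the exact 95% Poisson interval as a vertical line and the number of peaks beside the dot. Black bars give the density over the rest of the same chromosome, and the intervals of GATA3, BCL11B and RORA lie wholly above their bars.

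Median enrichment at these loci was near that of the list, while high values made up a smaller share of the 45 peaks. The fold enrichment over the control is a value of the authors' peak caller at each summit; that control is whole cell extract by the labels, but the peak names carry the text IgG. The fold had a median of 10.6 over the 45 peaks and of 11.3 over all peaks. The quartiles were 7.81 and 14.7 at the 8 loci against 8.31 and 18.7 in the whole list. A fold of at least 10 was reached by 25 of the 45 peaks (55.6%), and by 59.8% of all peaks. A fold of at least 20 was reached by 5 of the 45 (11.1%, exact 95% binomial interval 3.71 to 24.1), and by 23.0% of all peaks, a share inside that interval. The 5 peaks lay at 3 loci, with 3 at RORA and 1 each at GATA3 and BCL11B. The nearest values on either side of this limit were 18.95 and 21.2. A −log10 q-value of at least 100 was reached by 3 of the 45 (6.67%), and by 16.5% of all peaks. ChIP reads at the summit, solved from each peak's fold and p-value, had a median of 44 at the 8 loci and 43 in the list. Density was thus higher than over the rest of the chromosomes, by intervals that treat neighbouring peaks as independent. The medians of fold and reads were near those of the list.

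**Figure D2:**
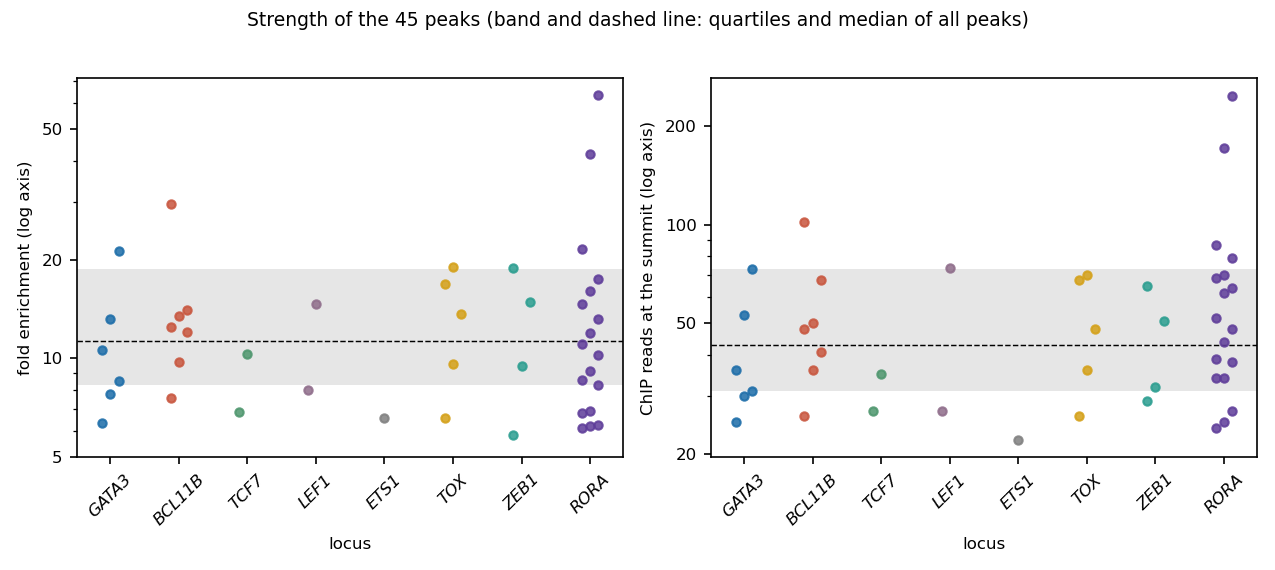
Fold enrichment (left, log axis) and ChIP reads at the summit (right, log axis) of each of the 45 peaks by locus, with the quartiles of all 18908 peaks as a grey band and their median as a dashed line. RORA spans from the lower end of both scales to the highest values of the 8 loci, a fold of 63.3 with 248 reads.

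At GATA3, all 6 peaks lay within 12 kb of the gene start or just before it. The strongest was at chr10:8102058-8102558, 6.29 kb into the gene, with a fold of 21.2, a −log10 q-value of 73.7 and 73 ChIP reads. A second summit, at chr10:8102853-8103012, stood 664 bp away with a fold of 6.35 and 25 reads. The next in strength, at chr10:8098811-8099307, was 2.95 kb into the gene and had a fold of 13.2 with 53 reads. The strongest and the weakest GATA3 peak were thus neighbours. In RefSeq a further GATA3 start lies 14.74 kb from the gene's end in GRCh38.p14. The strongest summit lay 14.71 kb from the rounded hg19 end, so within the rounding error it is beside that start. Its distance into the gene is counted from the start of the rule's span only. Beside the start, a summit 0.52 kb before it (chr10:8095401-8095592) had a fold of 7.81 and a summit 0.558 kb after it (chr10:8096417-8096698) a fold of 8.51. Both distances are uncertain by up to 1 kb because the rule rounds the span. Counted from the rounded end, these summits lay at 21.52 and 20.44 kb, and the 2 printed RefSeq starts at 21.56 and 20.51 kb. Each summit is thus near a GATA3 start, and the rounded span does not settle which side of it the summit is on. The sixth peak, at chr10:8107733-8107918, had a fold of 10.6. GATA3-AS1, a long non-coding gene, neighbours GATA3 in RefSeq, so the summit before the start is not assigned to either gene. No further summit followed for 120 kb on the low-coordinate side of the span or for 232 kb on the other. Such distances were not particular to GATA3, as the nearest summits outside the TOX window were 145 and 125 kb from its span.

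BCL11B carried the highest fold outside RORA, and it lay before the gene. The peak at chr14:99740780-99741226, 2.99 kb upstream of the start, had a fold of 29.5, a −log10 q-value of 116.9 and 102 ChIP reads. It ranked 96th by q-value among the 623 peaks of chromosome 14. A summit 834 bp nearer the gene, at chr14:99739805-99740345, had a fold of 14.04 and 48 reads. No other locus of the 8 had more than 1 summit upstream. Inside the gene, 5 peaks lay 9.39 to 53.1 kb from the start with folds from 7.56 to 13.5. The widest of the 45 peaks was among them, at chr14:99696553-99697220, with 668 bp, a fold of 13.5 and 68 reads over 4 control reads. The far 69.9 kb of the window, which hold the end of the gene, had 0 peaks. Outside the window the nearest summits were 941 and 210 kb from the span.

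The HMG-box genes had few peaks near their starts. At TCF7, the summits lay 18.4 and 24.3 kb into the gene, at chr5:133468227-133468482 with a fold of 10.3 and 35 reads, and at chr5:133474169-133474330 with a fold of 6.86 and 27 reads. Both folds were below the list's median of 11.3. VDAC1 and SKP1 are the protein-coding neighbours of TCF7 in RefSeq, and both summits were inside the TCF7 span. At LEF1, a summit 33.1 kb into the gene (chr4:109056782-109057032) had a fold of 14.6 with 74 reads over 4 control reads. The other LEF1 summit lay 4.75 kb upstream (chr4:109094609-109094815) with a fold of 8.02 and 27 reads, on the side where LEF1-AS1 is annotated in RefSeq. The factor genes TCF7 and LEF1, which have overlapping roles in the thymus, thus had 2 peaks each.

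TOX had 5 peaks, 4 inside the gene and 1 past its end, and none near its start. The first 134 kb of the gene, and the 20 kb before it, had 0 peaks. The highest folds were 18.95 at chr8:59866067-59866325 with 70 reads and 16.9 at chr8:59848604-59848829 with 68 reads, which lay 166 and 183 kb from the start. A summit 2.88 kb past the gene's end (chr8:59713979-59714432) had a fold of 13.7. The remaining peaks, at chr8:59898034-59898211 and chr8:59771025-59771229, had folds of 9.62 and 6.59. Their 36 and 26 reads placed them in the lower part of the list.

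ETS1 had the fewest peaks of the 8 loci, a single one at chr11:128342187-128342382, 115.7 kb into a gene of 130 kb, with a fold of 6.59 and 22 reads. Of all peaks in the list, 1.07% had fewer reads than that. No other summit lay within 100 kb of the ETS1 span. ZEB1 had 4 peaks, all inside the gene and in its first 66.4 kb. The summit at chr10:31607910-31608085 lay 0.984 kb past the rounded start with a fold of 9.46 and 32 reads. The strongest ZEB1 peak, at chr10:31670963-31671203, had a fold of 18.9 with 65 reads, and 2.34 kb away a summit at chr10:31673309-31673495 had the lowest fold of the 45, 5.86, with 29 reads over 4 control reads. The fourth, at chr10:31642630-31642918, had a fold of 14.9. Just outside the window, 23.3 kb before the ZEB1 span, a peak at chr10:31583552-31583782 had a fold of 12.2.

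**Figure D3:**
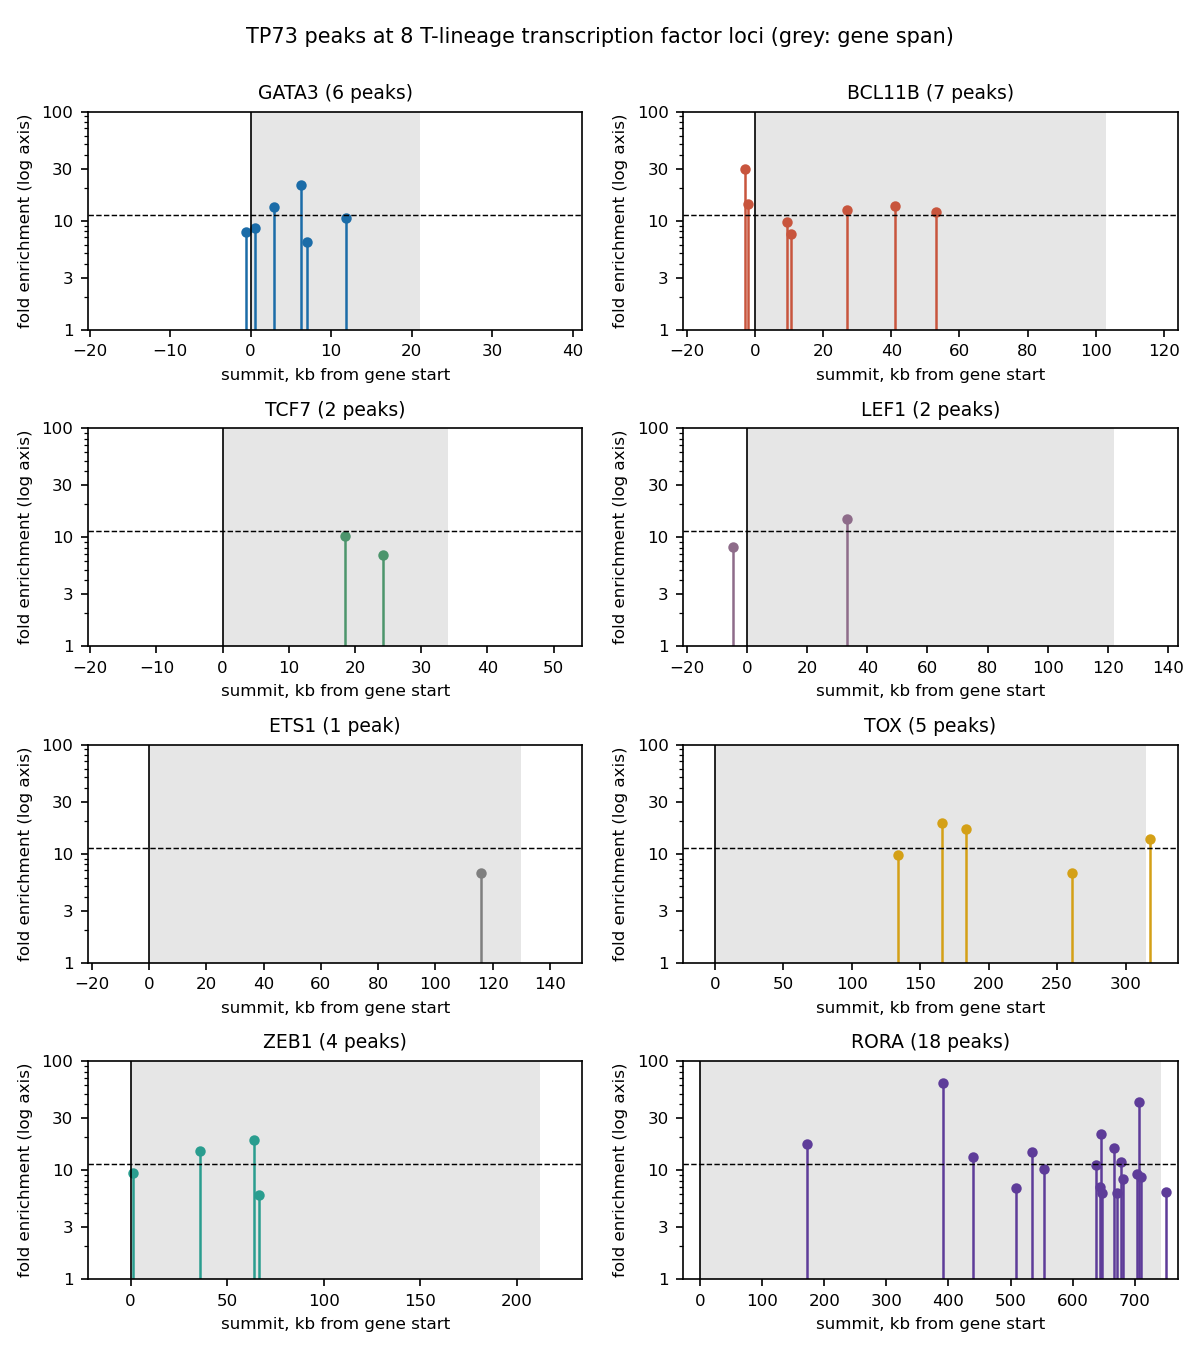
Fold enrichment (log axis) of each peak against the distance of its summit from the rounded gene start in kb, counted in the direction of transcription, for the 8 loci. Grey marks the gene span, the vertical line the start and the dashed line the median fold of all peaks, 11.3, and the RORA peaks crowd towards the end of the gene while those of ZEB1 lie in its first part.

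RORA held the strongest peak of the 8 loci. At chr15:61130342-61130955, 391 kb from the start of a gene of 742 kb, the fold was 63.3, the −log10 q-value 359.3 and the ChIP reads 248. It had the third highest −log10 q-value among the 796 peaks of chromosome 15, and 98.8% of all peaks in the list had a lower fold. The second strongest, at chr15:60815279-60815728, had a fold of 41.8 with 172 reads and ranked 40th on the chromosome. The third, at chr15:60876166-60876519, had a fold of 21.6 with 87 reads. The other 15 peaks had folds from 6.16 to 17.5, so most RORA peaks were of ordinary strength beside these 3.

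RORA peaks were gathered towards the end of the gene. Of the 17 inside the span, 16 lay in its second 50%, against 8 of 22 at the other 7 genes. A group of 11 summits, singled out after their positions were seen, lay within 72.3 kb, from 32.5 to 104.8 kb before the gene's end, and included folds of 41.8 and 21.6. Their median fold was 9.17, against 13.2 for the other 7 RORA peaks. Of the 9996 fixed windows of 100 kb with at least 1 peak in the genome, 16 held at least as many as the 11 of this group (0.160%). In the RefSeq table a promoter of a shorter RORA transcript starts 139 kb from the gene's end in GRCh38.p14. The group lies nearer to the gene's end than that distance, and the next summit, 188 kb from the end, lies farther. The longest interval without a peak, 219 kb, separated the strongest peak from the summit nearest the gene start (chr15:61349592-61349888, fold 17.5, 79 reads), which was still 172 kb into the gene. A peak 8.83 kb past the gene's end, at chr15:60771054-60771529, had a fold of 6.27 with 44 reads over 6 control reads, the highest control background of the 45 peaks. ICE2 is the protein-coding neighbour of RORA within 20 kb in RefSeq, so this summit outside the RORA span is not assigned to either gene.

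The folds of RORA were divided by a raised control background. None of its 18 peaks was scored against the genome-wide background of 2.41 control reads per fragment of 142 bp (the width of the shortest peaks), the lowest level used, and on chromosome 15 as a whole 0.754% of peaks were. Outside RORA it applied to 11 of the 27 peaks (40.7%), against 51.9% of the whole list. The median background was 3.21 control reads at RORA, 3.42 over the rest of chromosome 15 and 2.56 at the other 7 loci. RORA summits had a median of 50 ChIP reads, against 49 over the rest of chromosome 15 and 36 at the other 7 loci, while the median folds of RORA and of the other 7 loci were 10.7 and 10.6. If the genome-wide background is put in place of the local one, the median fold of RORA is 14.6 and that of all peaks 12.6. This change raises the fold of nearly every peak of chromosome 15, and the same value for the rest of that chromosome was not computed. The gap between RORA and the other 7 loci was thus larger in median reads than in median fold. The quartiles of reads overlapped, at 35 and 69.75 for the 18 RORA peaks and at 29.5 and 59 for the other 27. What raises the control on chromosome 15 was not tested.

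**Figure D4:**
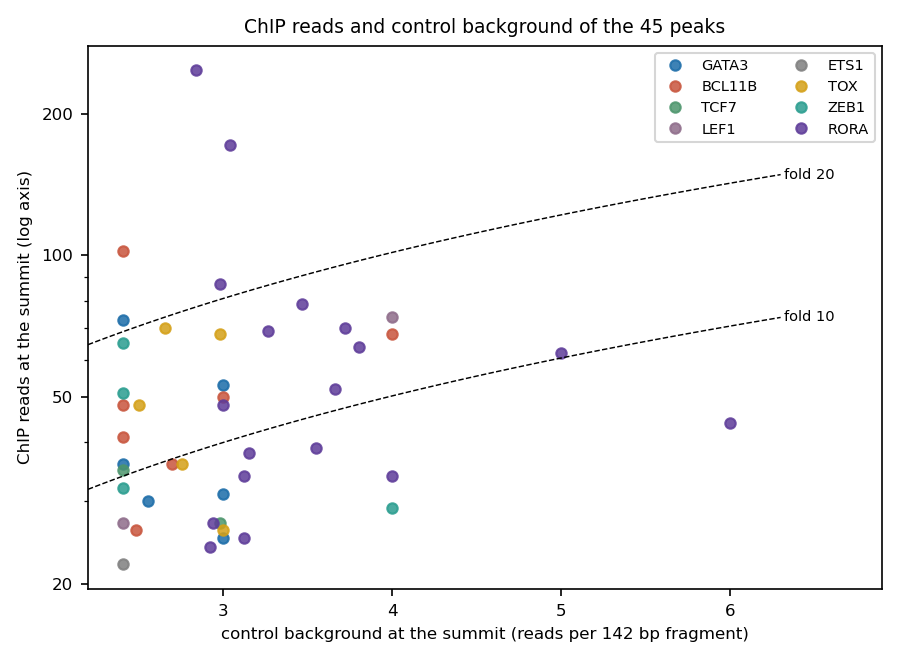
ChIP reads at the summit (log axis) against the control background there (reads per 142 bp fragment) for the 45 peaks, coloured by locus, with dashed lines where the fold is 10 and 20. RORA peaks start at 2.84 control reads, to the right of the points at 2.41, which belong to the other loci.

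Position in the gene and spacing were features that the rule did not use within a window. Of the 45 summits, 39 (86.7%) lay inside a gene span, and spans make up 84.0% of the windows, a similar share. Exons and introns of hg19 were not analysed here. Of the 6 outside, 4 lay upstream and 2 past the gene's end, and the farthest was 8.83 kb from its gene. Near the start, 3 summits lay within 1 kb, at 2 loci, and 7 within 5 kb, at 4 loci. TCF7, ETS1, TOX and RORA had none within 5 kb of the rounded start. Another summit stood within 1 kb of 6 of the 45 peaks (13.3%), in 3 pairs at GATA3, BCL11B and RORA, and the share was 13.3% in the whole list. Within 10 kb the share was 55.6% at the 8 loci and 40.8% in the list. The median width was 251 bp at the 8 loci and 255 bp in the list.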

How the data were processed

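TP73 ChIP-seq of TL-Om1 cells was analysed from the authors' peak list of 1 ChIP library. The tools listed in the submitters' processing notes are MACS2, SAMtools and Bowtie2, with hg19 as the build, and reads were single-end of 50 bases per the labels' protocols. Caller settings and the handling of duplicates were not given in these sources. The deposited values are, per peak, a fold, the −log10 of its p-value and q-value, a score, and positions. By the caller's formula the fold is the ratio of ChIP pileup to local control, with 1 added to each. Peak names in the list contain the text IgG while the labels name whole cell extract, so "control" means whichever library the caller used. Positions are counted from 1.

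The 45 peaks were selected by summit, with spans rounded to 1 kb as the rule gives them, so distances from gene starts carry that error. Members and lists were chosen with earlier results of these data known. All 8 genes are named, and every peak of a locus with 5 or fewer, the strongest peak, the peak nearest the start and each fold of at least 20 is given by position. Strand came from RefSeq for 6 genes and from textbook knowledge for ETS1 and TOX.

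ChIP reads and control background were solved from fold and p-value with the caller's formulas, with backgrounds of at least 1 read. The lowest common background gave 0.975 pileup units per ChIP read. With that step 100% of peaks had whole reads within 0.01 (2.43% without it), and all 45 members had 1 solution. On 2000 simulated peaks made with the same formulas, 100% of reads were recovered. Read totals are not given, so the depth is known only at summits. Chromosome density is over first to last summit. The planned lists of other T-lineage factors and of paralogs, and motifs under peaks, need hg19 sequence or annotation and were not run. Tools were matplotlib 3.10.9, scipy 1.17.1, numpy 2.4.6 and pandas 2.3.3 under Python 3.11.15.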

Additional observations from a re-analysis of the deposited data

How the results depend on the processing

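The density ratio of 3.76 stayed between 2.80 and 4.13 over 17 alternatives: windows of 0, 10, 50 and 100 kb, a −log10 q-value of at least 10, a fold of at least 5, merging of peaks closer than 500 bp, each locus left out, and 2 settings chosen after seeing the data, namely 30 or more ChIP reads and chromosome spans without their longest peak-free interval. It was lowest with 100 kb and highest without ETS1. The number of peaks ranged from 27 without RORA, a change of more than 1.5 times that shows how many of the members are RORA's, to 55 with 100 kb. The median fold ranged from 10.3 to 13.2, the share with a fold of at least 20 from 7.41% without RORA to 14.3%, and the median ChIP reads from 36 to 48. The 95% intervals of the reported values were 8.58 to 13.5 for the median fold and 35 to 53 for the median reads, from ranked values, and 3.71% to 24.1% for the share. They treat the 45 peaks of 1 library as independent. The alternatives share most of those peaks, so values inside the intervals do not measure stability. The limits on q-value and on a fold of at least 5 kept all 45 peaks, so they could not move the median fold, the median reads or the share. The highest median fold and share came with 30 or more ChIP reads, a limit that leaves out weak peaks. By locus, LEF1 had 1 peak inside its span alone, and with 100 kb TCF7 had 4, ZEB1 7 and RORA 22. Leaving out a library was not feasible with 1 ChIP library, and sites below the caller's limit were not analysed here. No paired analysis was possible because each group has a single library.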
